A study of Mus musculus with 8 samples.

Results

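Suz12delta ESCs were compared with both wild-type ESC lines of the series, E14 and CJ7, by RNA-seq. A gene was taken as a member where its value in the Suz12delta library lay on the same side of both wild-type libraries, with at least 1 FPKM in 1 or more of the 3 libraries and a value above 0 in all of them. FPKM, the unit of all levels given here, is the number of fragments per kilobase of transcript, scaled to the number of fragments mapped in the library. Of the 36808 genes in the table, 15574 met the conditions on level, and 12436 of these were members. Suz12delta ESCs were higher than both wild types at 4540 genes and lower at 7896, while the other 3138 genes lay between the wild types. Close to the lower limit, *Hspa1l* was included at 0.548 FPKM in E14, 0.427 in CJ7 and 1.0 in Suz12delta, and *Tox3* was left out at 0.998, 0.470 and 0.174 FPKM.

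The 3 libraries were each the only one of their condition, so no p-value or replicate error can be given for any difference below. E14 is a wild-type line of 129/Ola background and CJ7 a wild-type line of 129/S background. The Suz12delta line carries a targeted deletion in the 3′ part of *Suz12* and has a C57/BL6 background, so genotype and strain cannot be told apart. All of them were ESCs kept on irradiated mouse embryonic fibroblasts in serum with LIF, and the feeders were depleted by a short plating step before RNA was taken. The labels place CJ7 in 1 preparation and sequencing batch with another library of the series, by its column name that of Eednull ESCs, as a wild-type control for that batch. Whether Suz12delta shared a batch with E14 is not given in the sources used here. The line was also differentiated towards spinal motor neurons, and day 5 libraries of Suz12delta and E14 were used for a further comparison. The study used the PRC2 mutant lines to ask how H3K27me3 levels bear on gene expression and lineage commitment.

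PRC2, the Polycomb repressive complex 2, places methyl groups on lysine 27 of histone H3. Its core is made of SUZ12, EED and one of the methyltransferases EZH1 and EZH2. In ESCs the mark covers the promoters of many developmental regulators that these cells keep silent, among them the *Hox* clusters and the transcription factors of the germ layers and extraembryonic lineages. PRC1, which can bind the mark through its CBX subunits, compacts these loci and ubiquitinates histone H2A.

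*Suz12*, on chromosome 11 from 79806608 to 79847625 (plus strand, NCBI build 37, as are all gene positions given here), had 41.3 FPKM in E14, 53.1 in CJ7 and 6.21 in Suz12delta ESCs. The log2 ratio was -2.71 to E14 and -3.08 to CJ7, with a pseudocount of 0.1 FPKM added before each ratio. The table holds 1 value per gene and does not show which exons the remaining signal came from. At day 5 it was 16.2 FPKM in E14 and 11.6 in Suz12delta cells, a smaller difference than in ESCs.

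At least a 2-fold difference in the same direction from both wild types was used as the size rule for calling a gene. In Suz12delta ESCs 1615 genes were called higher (10.4% of those tested) and 2006 lower (12.9%). The wild types themselves were at least 2-fold apart at 2421 genes (15.5%), counted in either direction and against a single reference. By that measure Suz12delta ESCs were at least 2-fold higher than E14 at 1930 genes and lower at 3673. Against CJ7 alone they were higher at 2799 genes and lower at 2802. Neither wild type has the strain background of the Suz12delta line, so the gap between the wild types does not give the scale of that strain difference. The median log2 ratio over all tested genes was -0.41 to E14 and -0.14 to CJ7, and that of CJ7 to E14 was -0.22, so a gene at the middle of the table was slightly lower in Suz12delta ESCs to begin with. When the libraries were brought to the same 75th percentile, the medians became -0.05 and 0.01, the higher genes numbered 2112 and the lower ones 1229. Genes called higher were mostly weakly expressed in wild-type ESCs, with medians of 1.45 FPKM in E14, 1.39 in CJ7 and 6.87 in Suz12delta. Of them, 566 were under 1 FPKM in both wild types and could enter the test only because they were higher in Suz12delta. Over all tested genes 749 entered in that way. Of the other 14825 there were 1049 called higher. Genes called lower had medians of 12.0, 11.2 and 3.57 FPKM.

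**Figure D1:**
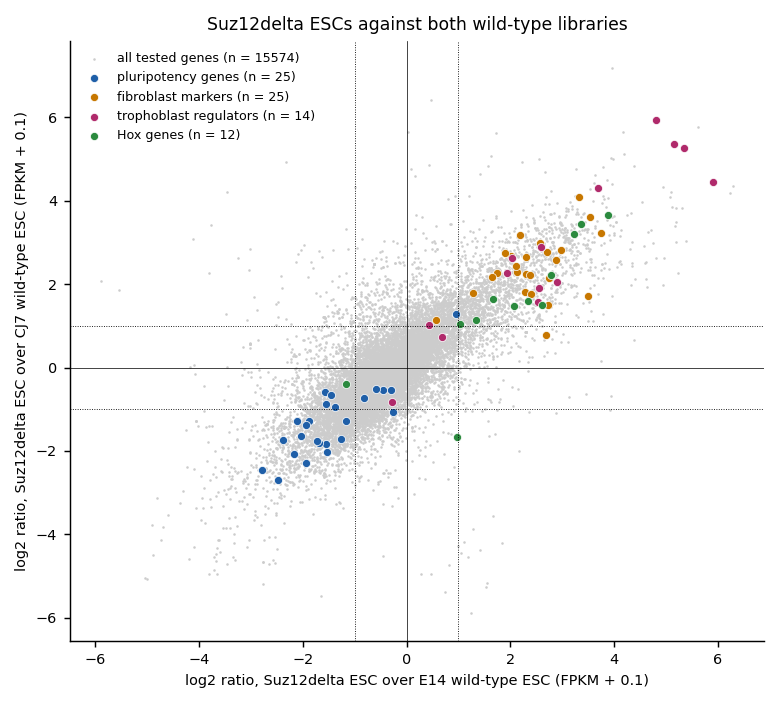
Each point is 1 of 15574 tested genes, with its log2 ratio to E14 on the horizontal and to CJ7 on the vertical axis and dotted lines at a 2-fold difference. Fibroblast markers, trophoblast regulators and most *Hox* genes lie in the upper right, and 24 of 25 pluripotency genes in the lower left.

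The trophoblast regulators held 4 of the 5 genes that were higher by the most. These genes specify the outer lineage of the blastocyst that forms the placenta, or are expressed early in it. *Krt7*, a keratin of simple epithelia and trophoblast (chromosome 15, 101241474 to 101260744), had 0.584 FPKM in E14, 0.618 in CJ7 and 27.6 in Suz12delta ESCs, with log2 ratios of 5.34 and 5.27. The X-linked placental homeobox genes *Rhox6* (35180087 to 35183034) and *Rhox9* (35252274 to 35255044) had values of the same order. *Rhox6* was 0.910, 0.780 and 35.8 FPKM, and *Rhox9* was 1.33, 0.555 and 39.7 FPKM. Both belong to a cluster of related genes, and their values are uncertain to the extent that reads were divided between copies.

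*Hand1*, a basic helix-loop-helix factor of trophoblast giant cells and of mesoderm (chromosome 11, 57642207 to 57646320), had 0.198 FPKM in E14, 0.722 in CJ7 and 17.9 in Suz12delta. *Esx1*, an X-linked homeobox gene of the placenta, had 1.39, 0.883 and 19.3 FPKM. At both, Suz12delta was the one high library of the 3. The upstream regulators were at lower levels. *Cdx2*, which sets up the trophectoderm, had 0.394, 0.296 and 1.80 FPKM, and *Gata3*, which acts alongside it, had 0.479, 0.948 and 4.22 FPKM. *Gata2* had 0.228, 0.541 and 1.81 FPKM.

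Of the 14 tested genes of this list, 11 were called higher and none lower, beside 10.4% and 12.9% of all tested genes. Of the 14, 6 were under 1 FPKM in both wild types and were tested only through the Suz12delta value. Among the other 8 there were 5 called higher, beside 1049 of the 14825 tested genes at 1 FPKM or more in a wild type. The simple keratins *Krt8* (9.78, 7.94 and 59.6 FPKM), *Krt18* (11.5, 7.66 and 47.7) and *Krt19* (3.59, 5.72 and 21.6), which were detectable in the wild types, were also called higher. *Eomes* went the other way at 1.05, 1.58 and 0.848 FPKM, short of the size rule. *Elf5* stayed at 0.0971 FPKM in E14, 0 in CJ7 and 0.325 in Suz12delta, *Tpbpa*, a spongiotrophoblast marker, was listed at 0 in Suz12delta, and no entry carried the symbol *Tfap2c*. The 5 defining trophoblast markers found in the table summed to 2.22 FPKM in E14, 3.55 in CJ7 and 25.1 in Suz12delta, most of it *Hand1*. In bulk RNA, more or fewer cells of a type and more or less RNA per cell cannot be told apart.

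The *Hox* genes, which assign position along the body axis, were also higher but at low levels. *Hoxa11* (chromosome 6, 52192107 to 52196213) had 0.0551 FPKM in E14, 0.0814 in CJ7 and 2.20 in Suz12delta. *Hoxd10* had 0.102, 0.0904 and 1.99 FPKM, and *Hoxd11* had 0.153, 0.157 and 2.28 FPKM. *Hoxa9* (0.254, 0.425 and 2.33 FPKM) and *Hoxd13* (0.786, 0.794 and 2.71) followed, so among entries above 0 in all 3 libraries the 5 largest differences were at genes of the posterior part of the A and D clusters. Of 40 table entries for 39 *Hox* genes, 30 were higher than both wild types and 5 lower at any level. The limit of 1 FPKM was reached by 14 entries, of which *Hoxa10* (0, 0.766 and 3.29 FPKM) and *Hoxc10* (0, 0.0991 and 1.23) were left out because E14 was listed at 0. Of the 12 tested, 10 passed through the Suz12delta library alone, and these 10 were called higher. Of all tested genes 10.4% were called higher, but of the 749 that passed through Suz12delta alone 566 were. Of the other 2 *Hox* genes, 0 were called higher. *Hoxb7*, 1 of them, lay between the wild types at 0.0896 FPKM in E14, 1.08 in CJ7 and 0.270 in Suz12delta.

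**Figure D2:**
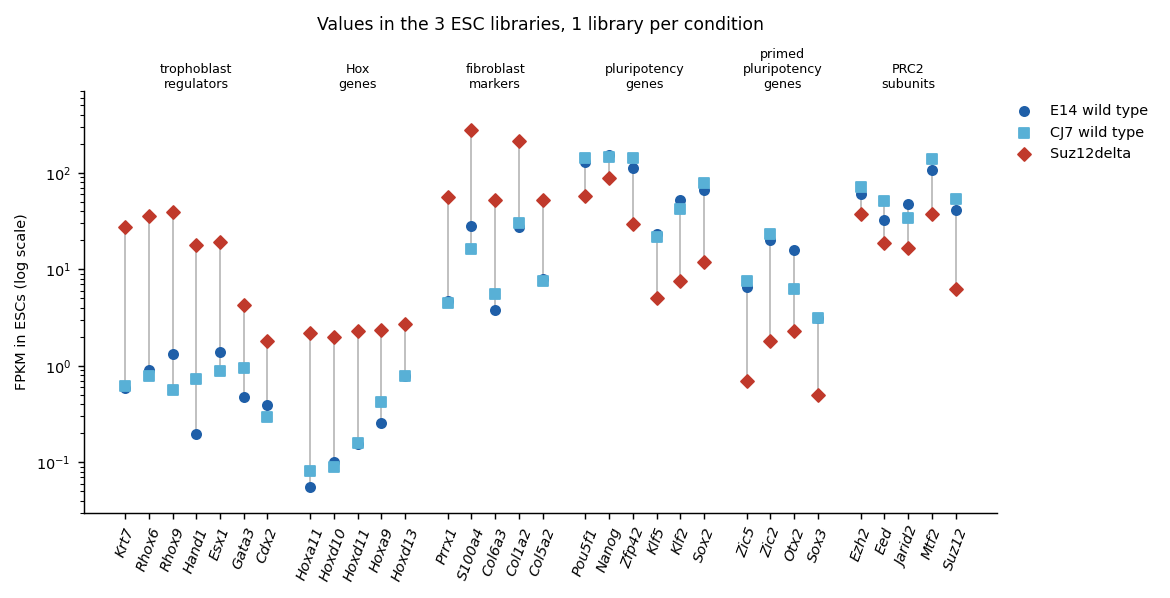
FPKM on a log scale in the E14, CJ7 and Suz12delta ESC libraries for genes picked from 6 lists. A grey line joins the lowest and highest value of each gene. Members that went the other way from their list, such as *Eomes*, *Dppa3* and, among primed genes, *Krt18*, were not picked. Suz12delta lies above both wild types at each trophoblast, *Hox* and fibroblast gene drawn (*Krt7* at 27.6 FPKM, *Hoxa11* at 2.20) and below both at each pluripotency, primed and PRC2 gene drawn (*Sox2* at 11.9, *Suz12* at 6.21).

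The promoters of some of these genes are shown because PRC2 in ESCs is known mostly from CpG-rich promoters, and these genes stand for the groups that moved together. The windows run from 250 bases before to 50 after an annotated start and come from RefSeq on GRCm38.p6, another build than the expression table, and CpG dinucleotides are in capitals. The CpG ratio is the number of CpGs over that expected from the C and G content, and 35.8% of all 32851 windows in the RefSeq table reached 0.6. *Krt7*, *Esx1*, *Cdx2* and *Hoxa11* represent the trophoblast and *Hox* genes that were higher. *Prrx1* and *Xlr5c* are further genes that were higher, a fibroblast marker and a germ-cell-type gene of the X chromosome. *Sox2* and *Klf2* are the pluripotency genes that were lower by the most.
Krt7 (chr15:101412153-101412452, + strand): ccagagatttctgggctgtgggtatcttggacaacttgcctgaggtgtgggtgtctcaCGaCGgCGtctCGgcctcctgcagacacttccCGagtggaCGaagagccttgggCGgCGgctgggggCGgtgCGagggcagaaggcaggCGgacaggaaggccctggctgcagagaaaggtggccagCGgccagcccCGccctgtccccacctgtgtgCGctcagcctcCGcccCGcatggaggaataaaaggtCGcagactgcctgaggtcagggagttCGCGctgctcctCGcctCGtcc
Esx1 (chrX:137120277-137120576, - strand): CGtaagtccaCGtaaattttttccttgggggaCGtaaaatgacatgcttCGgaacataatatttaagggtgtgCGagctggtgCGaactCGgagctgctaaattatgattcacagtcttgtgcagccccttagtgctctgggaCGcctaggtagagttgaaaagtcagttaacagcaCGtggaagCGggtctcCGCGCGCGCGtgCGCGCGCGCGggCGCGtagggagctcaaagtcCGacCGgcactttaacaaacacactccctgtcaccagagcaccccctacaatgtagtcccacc
Cdx2 (chr5:147307200-147307499, - strand): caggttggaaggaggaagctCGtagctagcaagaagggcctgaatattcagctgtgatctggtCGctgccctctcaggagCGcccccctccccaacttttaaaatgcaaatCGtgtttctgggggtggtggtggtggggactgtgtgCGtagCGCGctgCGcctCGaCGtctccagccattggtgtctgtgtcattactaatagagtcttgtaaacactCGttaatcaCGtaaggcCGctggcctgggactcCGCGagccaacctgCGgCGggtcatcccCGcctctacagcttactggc
Hoxa11 (chr6:52245761-52246060, - strand): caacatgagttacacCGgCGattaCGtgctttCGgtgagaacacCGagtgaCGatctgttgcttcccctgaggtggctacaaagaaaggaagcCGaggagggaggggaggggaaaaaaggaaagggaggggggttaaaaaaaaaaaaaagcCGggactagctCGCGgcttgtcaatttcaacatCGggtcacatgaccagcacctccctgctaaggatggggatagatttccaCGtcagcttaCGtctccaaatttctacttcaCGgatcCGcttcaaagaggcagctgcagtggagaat
Prrx1 (chr1:163313601-163313900, - strand): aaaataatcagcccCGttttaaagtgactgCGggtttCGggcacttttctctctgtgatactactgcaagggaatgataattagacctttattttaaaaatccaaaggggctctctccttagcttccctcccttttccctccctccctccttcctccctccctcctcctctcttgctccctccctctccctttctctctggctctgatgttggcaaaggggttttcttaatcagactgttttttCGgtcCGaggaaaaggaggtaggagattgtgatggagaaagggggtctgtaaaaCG
Xlr5c (chrX:73290466-73290765, - strand): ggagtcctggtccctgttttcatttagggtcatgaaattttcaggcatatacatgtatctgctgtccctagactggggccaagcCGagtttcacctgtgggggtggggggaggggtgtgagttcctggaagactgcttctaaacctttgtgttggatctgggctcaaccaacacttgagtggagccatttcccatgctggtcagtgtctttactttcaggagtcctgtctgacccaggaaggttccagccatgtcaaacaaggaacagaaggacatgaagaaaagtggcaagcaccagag
Sox2 (chr3:34649745-34650044, + strand): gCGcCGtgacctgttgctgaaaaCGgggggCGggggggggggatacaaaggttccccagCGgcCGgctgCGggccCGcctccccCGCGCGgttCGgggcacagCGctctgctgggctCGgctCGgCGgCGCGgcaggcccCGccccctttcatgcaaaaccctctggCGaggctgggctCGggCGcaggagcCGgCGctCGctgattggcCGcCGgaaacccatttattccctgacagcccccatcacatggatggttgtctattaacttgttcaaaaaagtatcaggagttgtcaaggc
Klf2 (chr8:72318812-72319111, + strand): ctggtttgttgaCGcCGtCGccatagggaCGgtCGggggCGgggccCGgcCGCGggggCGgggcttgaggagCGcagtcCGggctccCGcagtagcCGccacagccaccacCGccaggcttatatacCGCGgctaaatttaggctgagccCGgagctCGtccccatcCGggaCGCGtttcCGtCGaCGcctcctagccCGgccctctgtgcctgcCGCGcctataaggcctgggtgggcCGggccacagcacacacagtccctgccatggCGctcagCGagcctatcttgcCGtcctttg
The window of *Krt7* held 21 CpGs (ratio 0.641), that of *Esx1* 24 (ratio 1.10), that of *Cdx2* 18 (0.731) and that of *Hoxa11* 15 (0.787). *Prrx1* held 6 (ratio 0.360) and *Xlr5c* 1 (0.0531), so genes that were higher included both CpG-rich and CpG-poor windows. *Sox2* held 27 CpGs (ratio 0.819) and *Klf2* 32 (0.889). The RefSeq table had a window for 8811 of the 12762 protein-coding genes tested (69.0%), below the 80% set for such a comparison, so promoter composition was not compared between higher and lower genes.

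Regulators of mesoderm and products of extraembryonic endoderm were mostly on the higher side, and endoderm regulators were divided. Of 12 mesoderm regulators tested, 8 were called higher and 0 lower, beside 10.4% and 12.9% of all genes. For 3 of the 12 the Suz12delta value alone met the level limit, and among the other 9 there were 5 called higher. Beside *Hand1*, they included *Tbx4*, a T-box factor of the hindlimb and allantois, with 0.552 FPKM in E14, 0.740 in CJ7 and 5.14 in Suz12delta, and *Pdgfra*, a receptor of mesoderm and primitive endoderm, with 0.665, 1.37 and 8.78 FPKM. *Prrx1* was called higher too, at 4.69, 4.44 and 55.5 FPKM. It and *Twist2* are also on the fibroblast list, as *Hand1* and *Eomes* are on the trophoblast list, so these lists are not separate. *T*, the primitive streak factor, lay between the wild types at 2.60, 1.65 and 2.36 FPKM. Of 4 endoderm regulators tested, 2 were higher than both wild types and 2 lower. The primitive endoderm factors *Gata6* (0.168, 0.337 and 1.02 FPKM) and *Gata4* (0.653, 1.27 and 2.94) were called higher at low levels, while *Hhex* and *Prdm1* were lower than both wild types but short of the size rule against CJ7. Among 14 extraembryonic endoderm products tested, 10 were called higher and none lower, or 8 of the 11 that reached 1 FPKM in a wild type. *Dab2*, an endocytic adaptor of primitive endoderm, had 3.68, 3.17 and 28.6 FPKM, *Cubn*, an endocytic receptor of visceral endoderm, 0.225, 0.595 and 2.70 FPKM, and *Cited1*, a transcriptional coregulator, 0.852, 0.684 and 9.98 FPKM. The basement membrane genes *Col4a1* (6.32, 4.17 and 21.9 FPKM) and *Sparc* (74.4, 82.4 and 348) are made by fibroblasts as well. Of the defining endoderm markers, *Afp* was listed at 0 in all 3 libraries, *Ttr* was at 0.0350 FPKM in Suz12delta, and *Sox7* and *Sox17* were under 1 FPKM.

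Neural regulators were divided. The motor neuron progenitor factor *Olig2* (chromosome 16, 91225795 to 91228922) had 0.0436 FPKM in E14, 0.0250 in CJ7 and 1.12 in Suz12delta ESCs, and its neighbour *Olig1* had 0.0532, 0.0774 and 1.19 FPKM. *Lhx9*, a LIM homeobox gene, had 0.588, 0.711 and 5.26 FPKM. *Lmx1b* and *Irx3* were called higher too, and all 5 had been under 1 FPKM in both wild types. The opposite held for *Pax6*, a neural progenitor factor (chromosome 2, 105509053 to 105543317), which had 8.99, 15.7 and 0.615 FPKM, with log2 ratios of -3.67 and -4.47. *Gbx2* (7.43, 6.55 and 0.917 FPKM), *Neurod1* (1.89, 1.16 and 0.150), *En2* and *Sox11* were likewise called lower. That made 5 of 12 in each direction, beside 10.4% higher and 12.9% lower of all genes. The 5 higher ones were tested only through the Suz12delta value. Of the other 7, 0 were called higher and 5 lower.

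The list of PRC2 targets that the study names had 16 tested members. Of these, 9 were called higher and 1 lower, beside 10.4% and 12.9% of all tested genes. The list is not independent of these samples, since the study chose some of its examples with them in view. Of its higher members, *Hoxa11*, *Olig2*, *Lhx9*, *Gata3* and *Cdx2* have been given above. Of the 16, 8 were tested through the Suz12delta value alone. Among the other 8, which reached 1 FPKM in a wild type, 1 was called higher and 1 lower. *Fgf8*, a growth factor of the primitive streak, was the exception at 20.5 FPKM in E14, 2.93 in CJ7 and 0.974 in Suz12delta, with a larger difference between the wild types than between CJ7 and Suz12delta. *Bmp4* (5.56, 6.85 and 7.93 FPKM) and *Gap43* (1.55, 4.22 and 4.62) were higher than both by less than the size rule.

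Pluripotency genes were lower almost throughout. Of 25 tested, 15 were called lower and none higher, against 12.9% of all genes tested, and *Dppa3* alone was above both wild types (6.53 FPKM in E14, 5.20 in CJ7 and 12.8 in Suz12delta). The median log2 ratio was -1.56 to E14 and -1.29 to CJ7, beside -0.41 and -0.14 for all genes, and with the 75th percentiles matched it was -1.20 and -1.14 with 13 genes called lower and 1, *Dppa3*, higher. *Sox2* (chromosome 3, 34548927 to 34551383), the partner of OCT4, had 67.1, 78.0 and 11.9 FPKM. *Klf2*, a naive-state factor (chromosome 8, 74842932 to 74845555), had 52.5, 41.8 and 7.55 FPKM, and *Klf5* had 23.0, 21.6 and 5.03 FPKM. *Zfp42*, a marker of undifferentiated ESCs, had 113, 142 and 29.2 FPKM, and *Nr0b1* had 27.0, 17.2 and 5.12 FPKM. *Nanog* differed less, at 155, 147 and 88.0 FPKM, with log2 ratios of -0.81 and -0.74. The 8 defining ESC markers were all well above 0 in Suz12delta ESCs, from 11.9 to 136 FPKM, and summed to 1107 FPKM in E14, 910 in CJ7 and 398 in Suz12delta.

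Genes of the primed, post-implantation state of pluripotency were lower as well. Of 13 tested, 8 were called lower and 1 higher, the keratin *Krt18* that is also on the trophoblast list. Among all tested genes 12.9% were called lower and 10.4% higher. The zinc finger genes *Zic2* (20.1 FPKM in E14, 23.0 in CJ7 and 1.79 in Suz12delta) and *Zic5* (6.64, 7.60 and 0.695) had the largest differences. *Otx2*, an early epiblast factor, had 15.8, 6.19 and 2.31 FPKM, *Sox3* 3.14, 3.13 and 0.494 FPKM, and *Fgf5* 1.74, 1.06 and 0.420 FPKM. All of these lay below both wild-type values.

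Fibroblast genes moved in the other direction as a block. All 25 were tested, all were higher than both wild types and 23 were called higher, 24 of the 25 having reached 1 FPKM in a wild type already. Among all tested genes 10.4% were called higher. The mesenchymal homeobox gene *Prrx1* (chromosome 1, 165175247 to 165243841) had 4.69 FPKM in E14, 4.44 in CJ7 and 55.5 in Suz12delta, the calcium-binding protein gene *S100a4* had 27.9, 16.3 and 281 FPKM, and the collagen gene *Col1a2* had 27.4, 30.4 and 215 FPKM. None was at 0 in any of the 3 libraries. The list summed to 631 FPKM in E14, 512 in CJ7 and 2997 in Suz12delta, with median log2 ratios of 2.37 and 2.29. The cells had been grown on embryonic fibroblasts, and the part of feeder RNA in the results for the other lists was not tested.

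**Figure D3:**
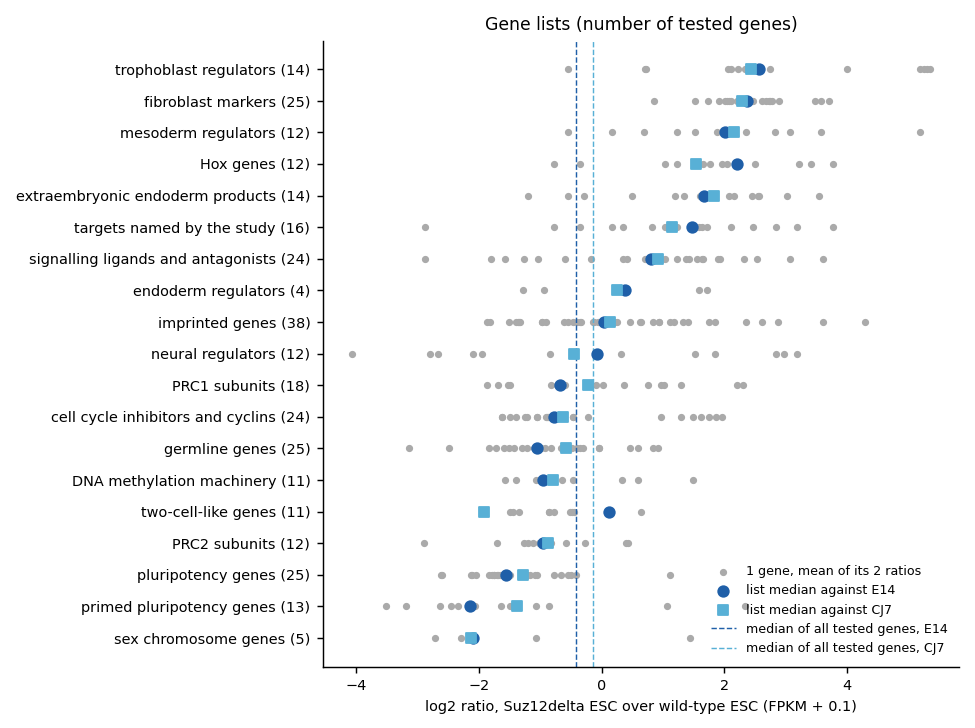
Log2 ratios of Suz12delta ESCs to wild-type ESCs by gene list, with 1 grey point per gene (mean of its ratios to E14 and CJ7), list medians against E14 (circles) and CJ7 (squares), and dashed lines at the medians of all tested genes (-0.41 and -0.14). Trophoblast regulators (2.57 and 2.44) and fibroblast markers (2.37 and 2.29) lie far to the right and pluripotency genes (-1.56 and -1.29) to the left.

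Signalling genes and imprinted growth regulators included some of the most abundant transcripts among the higher genes. *H19*, an imprinted non-coding RNA (chromosome 7, 149761434 to 149764048), had 12.2 FPKM in E14, 42.3 in CJ7 and 447 in Suz12delta. Its neighbour *Igf2*, a growth factor gene, had 10.3, 17.8 and 166 FPKM, so both genes of the domain were far above both wild types. Of 24 ligands and antagonists tested, 9 were called higher (37.5%) and 4 lower (16.7%), beside 10.4% and 12.9% of all genes. The share of lower ones was thus near that of all genes. The Suz12delta value alone brought 7 of the 24 to the level limit, and among the other 17 there were 6 called higher. *Inhba*, an activin subunit, had 5.48, 4.62 and 43.0 FPKM, *Grem1*, a BMP antagonist, 4.75, 2.39 and 17.4 FPKM, and *Wnt5a* 0.856, 2.63 and 9.28 FPKM. The lower ones were *Fgf8*, *Wnt8a* (6.29, 3.27 and 1.23 FPKM), *Fgf15* (3.54, 3.67 and 1.15) and *Fgf17* (7.49, 6.58 and 2.87).

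Imprinted genes as a list had no common direction. Of 38 tested, 9 were called higher (23.7%) and 6 lower (15.8%), beside 10.4% and 12.9% of all tested genes. With the 75th percentiles matched they numbered 10 and 4. The medians were 0.05 to E14 and 0.14 to CJ7. *Dlk1*, *Airn* and *Sfmbt2* were higher beside *H19* and *Igf2*, with *Sfmbt2*, a Polycomb-related gene of the placenta, at 11.2 FPKM in E14, 5.23 in CJ7 and 25.9 in Suz12delta. The maternally expressed RNAs *Rian* (86.1, 77.5 and 32.0 FPKM) and *Mirg* (9.41, 7.04 and 2.15) were lower. *Mest* differed most between the wild types, with 3.57 FPKM in E14, 62.8 in CJ7 and 40.1 in Suz12delta.

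Most other subunits of PRC2 lay below the wild types. Of 11 tested beside *Suz12*, 9 were below both and 3 were called lower, of which 1, *Mtf2*, was still called with the 75th percentiles matched. Of all 15574 tested genes, 7896 lay below both wild types and 12.9% were called lower. With the 75th percentiles matched 1229 of the 15574 were called lower, a share near that of 1 in 11. *Mtf2*, an accessory subunit, had 108 FPKM in E14, 139 in CJ7 and 37.5 in Suz12delta, and *Jarid2*, another, had 48.1, 34.1 and 16.8 FPKM. *E130012A19Rik*, on the list as a further accessory subunit, had 19.2, 22.0 and 8.88 FPKM. The core subunits *Ezh2* (60.8, 71.4 and 37 FPKM) and *Eed* (32.7, 50.9 and 18.8) were below both wild types without meeting the size rule against both, and *Ezh1* was 15.0, 8.16 and 5.65 FPKM. In PRC1 the CBX subunits went in both directions. *Cbx7*, the main CBX subunit of ESCs, had 61.5, 39.8 and 13.5 FPKM, while *Cbx8* (0.133, 0.592 and 1.90 FPKM), found in differentiated cells, was called higher. *Phc1* (145, 133 and 49.3 FPKM), *Pcgf6* (22.5, 19.5 and 6.43) and *Rybp* (36.9, 30.6 and 11.5) were called lower too.

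The *Cdkn2a* locus, a long-known Polycomb target, was among the cell cycle genes called higher. *Cdkn2a* (chromosome 4, 88920377 to 88940557), which encodes p16 and p19 inhibitors in overlapping frames, had 10.1 FPKM in E14, 10.6 in CJ7 and 40.3 in Suz12delta. Its neighbour *Cdkn2b* had 3.29, 2.81 and 9.53 FPKM. The D-type cyclin genes *Ccnd1* (31.4, 34.4 and 92.2 FPKM) and *Ccnd2* (12.5, 10.5 and 39.1) were higher, and *Ccna2* (62.7, 70.5 and 23.5), *Cdk6* (7.32, 10.4 and 2.78) and *Rbl1* (6.86, 7.46 and 2.26) were lower. Of 24 genes, 5 were called higher (20.8%) and 7 lower (29.2%), beside 10.4% and 12.9% of all tested genes. With the 75th percentiles matched 7 were higher and 3 lower, so the balance of this list turned with the scaling. That of all tested genes turned as well, to 2112 higher and 1229 lower.

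For DNA methylation, *Dnmt3l*, a cofactor of the de novo methyltransferases, was called higher at 34.3, 60.045 and 128 FPKM. *Tet1*, which oxidises methylcytosine, had 32.9, 29.8 and 10.4 FPKM and *Tdg*, which removes the oxidised base, 16.7, 18.8 and 6.64 FPKM, and these were the 2 called lower of 11 tested (18.2%, beside 12.9% of all genes). With the 75th percentiles matched *Tdg* was no longer called. Germline genes, many of them methylated in somatic cells, were not higher as a group. Of 25 tested, 0 were called higher and 7 lower (5 with the 75th percentiles matched), beside 10.4% and 12.9% of all genes, led by the meiotic gene *Hormad1* (7.34, 3.17 and 0.461 FPKM). Genes of 2-cell-like cells, a rare state in ESC cultures, differed most between the wild types. *Zscan4c* had 7.16 FPKM in E14, 34.7 in CJ7 and 5.54 in Suz12delta, and 0 of 11 were called in either direction. The *Zscan4* copies are nearly identical, and the division of reads among them is uncertain.

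Among the 15 genes higher by the most over the whole table, beside the trophoblast genes, were several with no role in early lineages. *Ppbp*, a platelet chemokine gene, had 0.271 FPKM in E14, 1.33 in CJ7 and 29.0 in Suz12delta, *Ly6a*, a surface antigen of stem and stromal cells, 2.80, 1.34 and 45.6 FPKM, and *Slco2a1*, a prostaglandin transporter, 0.879, 1.36 and 22.7 FPKM. *Kcnj15* (0.133, 0.0229 and 4.18 FPKM), a potassium channel gene, and *Ugt1a6a* (0.298, 0.0429 and 7.04), a glucuronosyltransferase gene that shares exons with its neighbours, completed the autosomal ones with *Prl2c2*. *Prl2c2*, a proliferin of the placenta and of cultured fibroblasts, had 0.257, 0.611 and 11.9 FPKM, and reads may be divided between it and *Prl2c3*. Another 2 entries among the 15 carry only clone names.

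X-linked genes stood out among the strongest differences. The X chromosome held 3.48% of the protein-coding genes tested, but 10 of the 30 protein-coding genes higher by the most and 13 of the 126 (10.3%) that were at least 8-fold above both wild types, as 0.987% of all protein-coding genes were. Beside *Rhox6*, *Rhox9* and *Esx1* they included *Tex13* (0.0732 FPKM in E14, 0.165 in CJ7 and 5.24 in Suz12delta), *Xlr5c* (0.0334, 0.145 and 4.45), *Xlr5b* (0.0335, 0.223 and 4.52), *Nxf7* (0.0591, 0.561 and 11.8) and *DXBay18* (0.0111, 0.0112 and 1.5). Several of these are known from germ cells or placenta, and *Xlr5b* and *Xlr5c* are near-identical copies whose values are uncertain. On the whole X chromosome 16.2% of 444 genes were called higher, beside 11.3% of all protein-coding genes.

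Other chromosomes also departed from the average. On chromosome 6, 17.0% of 587 genes were called higher and 7.84% lower, beside 11.3% and 13% of all protein-coding genes, and its median ratio to CJ7 was 0.09 where that of all was -0.16. Chromosome 13 had the largest share of lower genes on an autosome, 19.3% of 517, and 10.8% of 463 without the histone genes clustered there. Chromosome 8 had 18.0% lower, and there CJ7 itself was 0.11 above E14, unlike the median of -0.22 for all genes. Copy number of the lines was not measured, and its part was not tested.

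**Figure D4:**
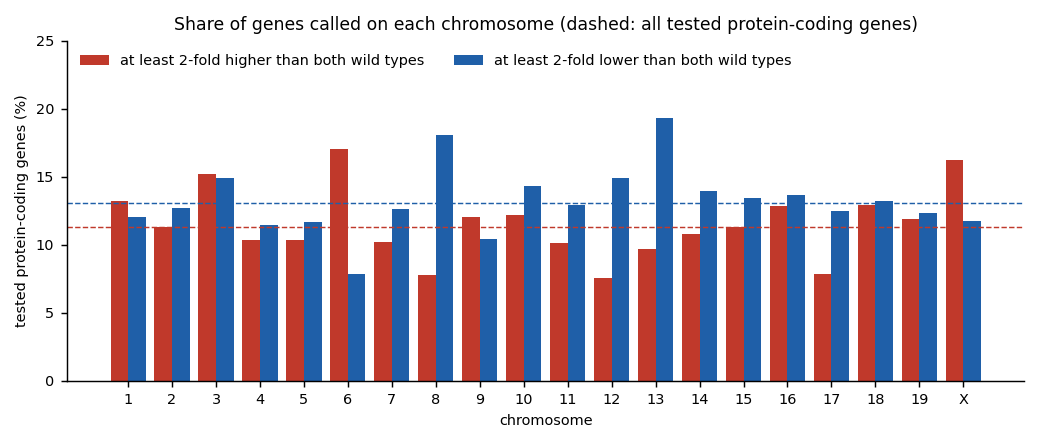
Percent of tested protein-coding genes on each chromosome that were at least 2-fold higher (red) or lower (blue) in Suz12delta ESCs than in both wild types, with dashed lines for all tested protein-coding genes (11.3% and 13%). The X chromosome (16.2%) and chromosome 6 (17.0%) have raised shares of higher genes, and chromosomes 8 (18.0%) and 13 (19.3%) of lower genes.

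Sex-linked markers differed as well. *Xist*, the RNA of the inactive X chromosome, had 4.55 FPKM in E14, 6.64 in CJ7 and 15.1 in Suz12delta ESCs, and its antisense partner *Tsix* had 1.98, 2.35 and 0.362 FPKM. Most Y-linked genes were lower. *Ube1y1* had 3.42, 3.38 and 0.00614 FPKM and headed the genes lower by the most when ranked by the ratio nearer to 0, *Eif2s3y* had 52.6, 53.8 and 12.3 FPKM, and *Uty* had 8.67, 11.6 and 1.45 FPKM. *Kdm5d*, also on the Y chromosome, was higher at 0.102, 0.249 and 0.890 FPKM, under the level limit. At day 5 *Eif2s3y* was 28.4 FPKM in E14 and 0.714 in Suz12delta cells and *Uty* was 9.84 and 0.140 FPKM, so in Suz12delta both were higher in the ESC library than in the day 5 library. The fibroblast markers were higher in the same library, and whether the 2 are linked was not tested.

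Of the 15 entries that were lower by the most, 9 were histone genes or short non-coding RNAs. They included the RNA component *RNase_MRP* (177 FPKM in E14, 231 in CJ7 and 9.56 in Suz12delta), *7SK* loci, microRNA-named entries and histone genes such as *Hist1h3i* (13, 28.7 and 0.832 FPKM). After these values were seen, all histone genes with a *Hist* symbol were counted. Of 68 tested, 61 were called lower and 0 higher, beside 12.9% and 10.4% of all tested genes, with medians of -1.93 and -2.48. The FPKM values summed to 797750 in E14, 718850 in CJ7 and 389170 in Suz12delta. The 10 highest entries made up 26.8%, 35.2% and 7.69% of these sums, and mmu-mir-2133-2, the highest in E14, had 37980 FPKM there and 2418 in Suz12delta. These entries move together with the lower calls, and the part of RNA selection or library preparation in them was not tested. Among protein-coding genes without histone genes, 1446 of 12697 were called higher and 1605 lower. The other 6 of the 15 entries included *Capn3*, a muscle calpain gene (5.63, 5.90 and 0.0791 FPKM), *BC037034* (2.94, 2.22 and 0.00283), *Ubash3a* (4.30, 2.28 and 0.0688) and *Dpys* (4.0, 1.77 and 0.0363).

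The day 5 libraries of the same lines gave a separate measurement of the same genotypes. Genes also at 1 FPKM or more in 1 day 5 library and above 0 in both numbered 14252, of which 17.3% were at least 2-fold higher and 5.54% lower in Suz12delta than in E14. Of the genes called higher in ESCs, 1266 could be compared and 727 of them (57.4%) were at least 2-fold higher at day 5 too, with a median log2 ratio of 1.31 beside 0.18 for all. Any of the 1266 under 1 FPKM in E14 at day 5 could be compared only through a higher Suz12delta value. Their number was not counted, so the share and the median are not independent of the level limit. Of the genes called lower in ESCs, 174 of 1697 (10.3%) were lower at day 5 and 226 (13.3%) were higher, with a median of 0.08. Here too a gene under 1 FPKM in E14 at day 5 could be compared only through a higher Suz12delta value. For comparison, 17.3% and 5.54% of all genes were higher and lower at day 5.

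Within the lists the day 5 values took different courses. All 12 trophoblast regulators that could be compared were higher at day 5, but 10 of them reached 1 FPKM through the Suz12delta library alone and so had to be. *Krt7* had 0.181 FPKM in E14 and 27.8 in Suz12delta cells, nearly its ESC level, *Rhox9* had 0.113 and 29.0 FPKM, *Gata3* 0.118 and 17.8 FPKM and *Cdx2* 0.00927 and 6.77 FPKM. *Hand1* was listed at 0 in E14 and had 1.79 FPKM in Suz12delta, below its ESC level. Of 20 fibroblast markers compared, 19 were higher than in E14, 13 of the 20 having reached 1 FPKM through Suz12delta alone. Their sum in Suz12delta cells was 513 FPKM, beside 2997 in Suz12delta ESCs and 437 in E14 day 5 cells, and without *Vim*, the exception, the sums were 319, 1930 and 38.3 FPKM. *Prrx1* was 3.69 FPKM and *S100a4* 1.75 FPKM in Suz12delta cells at day 5, far below their ESC values, while *H19* was at 796 FPKM, above its ESC value. Of 15 pluripotency genes compared, 14 were above E14 at day 5, at low levels, and 12 of the 15 reached 1 FPKM through Suz12delta alone. Examples were *Pou5f1* with 0.302 FPKM in E14 and 2.12 in Suz12delta and *Klf5* with 0.154 and 7.49 FPKM. *Sox2*, which E14 cells kept, was the one below E14, with 20.7 and 3.70 FPKM.

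**Figure D5:**
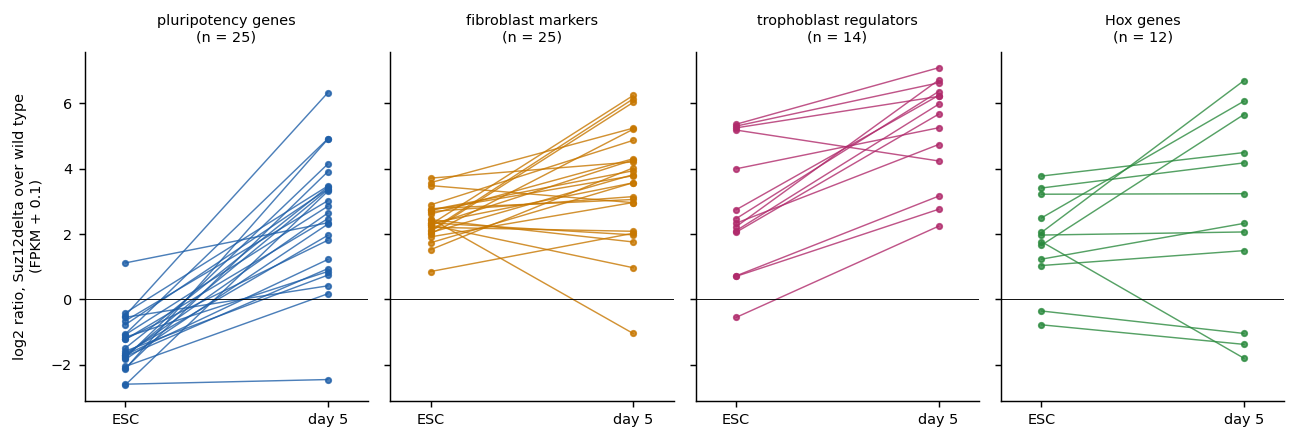
Log2 ratio (FPKM + 0.1) of Suz12delta to wild type in ESCs (mean of the ratios to E14 and CJ7) and at day 5 (to E14), with 1 line per tested gene; a gene listed at 0 at day 5 enters through the pseudocount. Of 25 pluripotency genes 24 lie below 0 in ESCs and 24 above 0 at day 5, fibroblast markers and trophoblast regulators lie above 0 at both except *Vim* (below at day 5) and *Eomes* (below in ESCs), and *Hox* genes end on both sides.

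Values of Eednull ESCs, an *Eed* mutant line of BALB/cR1 background that would be compared with the same wild-type libraries, are given only side by side. Of the 14 trophoblast regulators tested, 12 had a lower value in Eednull than in Suz12delta ESCs, with 4.86 FPKM for *Krt7*, 3.62 for *Rhox6*, 2.63 for *Hand1* and 4.73 for *Esx1*. The other 2 were higher in Eednull, *Cdx2* at 2.62 FPKM and *Eomes* at 2.34. Of the 12 *Hox* genes tested, 8 were higher in Eednull than in Suz12delta, among them *Hoxd11* at 4.34 FPKM and *Hoxd13* at 6.55, and 4 were lower, among them *Hoxa11* at 2.11 and *Hoxd10* at 1.36. *Olig2* had 5.19 FPKM and *Gata4* 11.4, above the 1.12 and 2.94 of Suz12delta. *Sox2* had 58.7 FPKM and *Zic2* 13.5, and the fibroblast markers summed to 1173 FPKM.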

How the data were processed

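Per the labels and the study's methods, RNA was extracted with Trizol and the libraries were run on an Illumina GA-2 or HiSeq. The authors aligned reads with Bowtie 0.12.7 and TopHat 1.3.2, using Ensembl gene models on NCBI build 37, and deposited FPKM values per gene from Cufflinks 1.2.1 and Cuffdiff, run with the options for sequence bias and for multi-mapping reads. These can divide reads of gene copies. The table holds no counts, and low values showed no steps of single reads (at most 0.795% of low genes shared 1 ratio between libraries), so the depth is unknown and no counting interval is given.

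Log2 ratios were computed with a pseudocount of 0.1 FPKM, which understates the change of low genes, on values as deposited. With 1 library per condition no test was run, and a gene was called at a 2-fold difference in the same direction from both wild types. An exact 0 was taken only as listed at 0, since *Nnt* was listed at 0 in Suz12delta ESCs and had 17.9 FPKM in Suz12delta day 5 cells, and 775 genes were left out because they were listed at 0 in 1 or more of the 3 ESC libraries.

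Members and the 19 gene lists were chosen with earlier results of these data known. Genes named were the 15 largest rises and falls by the ratio nearer to 0, up to 5 per list and direction, subunits of PRC2, *Pou5f1*, *Nanog*, *Sox2*, *Xist*, Y-linked genes, *Nnt* and the 10 highest entries per library; other genes named were chosen after their values were seen. Entries known only by clone names were counted and mostly not named. Gene positions are from GENCODE M1, which held 36104 of the 36808 identifiers. The calls were tested on simulated data with known 8-fold changes and less noise than the wild types had between them. That test does not cover calls near the 2-fold limit at the spread of these data. Alternatives were other pseudocounts, level limits and scalings, each wild type alone and genes listed at 0 kept. ChIP-seq data were not analysed here. Python 3.11.15, NumPy and pandas were used. Some results are not reported here.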

Additional observations from a re-analysis of the deposited data

Results flagged for a closer look

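Of 121 genes named by rule, 12 were at least 2-fold to one side of both wild types in ESCs and at least 2-fold to the other side of E14 at day 5. Over all genes compared at day 5, 90 of 1266 called higher in ESCs were at least 2-fold lower. Of 1697 called lower in ESCs, 226 were at least 2-fold higher. The 121 include genes that could not be compared at day 5. The difference between the time points was not tested, with 1 library per condition, and the values below are log2 ratios of Suz12delta to E14 at day 5.

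The neural progenitor genes *Olig2* (-6.75), *Olig1* (-5.09) and *Irx3* (-2.31) were higher in Suz12delta ESCs and lower at day 5, when E14 cells had 22.1 FPKM of *Olig2* and 9.70 of *Olig1*. The remaining 9 were lower in ESCs and higher at day 5. Of these, *Klf5*, *Zfp42*, *Klf2*, *Zic2* and *Tuba3a* were under 1 FPKM in E14 at day 5. They could be compared only through a higher Suz12delta value, so their direction at day 5 was set by the level limit. The 9 comprised the pluripotency genes *Klf5* (4.90), *Zfp42* (3.91), *Klf2* (3.31) and *Zic2* (1.68) and the germline genes *Tuba3a* (3.58) and *Stag3* (2.41). The others were the PRC1 subunit *Rybp* (1.5), the cyclin-dependent kinase *Cdk6* (1.43) and the adaptor *Gab1* (1.24).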

How the results depend on the processing

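No paired analysis was possible because each condition had 1 library, and for the same reason no replicate could be left out. The number of genes called higher was 966 at a minimum of 5 FPKM, 2799 with CJ7 alone as the reference, 582 at a 4-fold limit and, in an alternative chosen after seeing the data, 1049 among genes at 1 FPKM or more in a wild type. The number called lower was 1308 with a pseudocount of 1, 1229 with 75th-percentile scaling, 1125 with ratios centred on their median, 3673 with E14 alone and 298 at 4-fold. At the 2-fold limit more genes were lower than higher as deposited, and the reverse held with both scalings (2112 and 2161 higher) and, without scaling, at the 4-fold limit. The median of the mean ratios over the *Hox* genes was 1.87 and became 0.81 with a pseudocount of 1, 2.28 with none, 1.04 with a minimum of 0.1 FPKM and with none, 2.21 against E14 alone and 1.55 against CJ7 alone. No *Hox* gene above 0 in the E14, CJ7 and Suz12delta ESC libraries reached 5 FPKM in any of them. The median of the trophoblast regulators was 2.40 and became 4.0 at a minimum of 5 FPKM. The day 5 median of the genes called higher was 1.31 and became 1.0 with a pseudocount of 1. The medians of the pluripotency genes, fibroblast markers and PRC2 subunits moved by less than 0.302 (log2) in each alternative run. This limit is the median absolute log2 ratio between the wild types, 0.427, divided by the square root of 2. Of 139 values for the other 14 lists, 31 moved by more and 0 reversed from a median of at least a 2-fold change.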
